A study of Rattus norvegicus with 12 samples.

Results

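Long intergenic noncoding RNAs (lincRNAs) that were expressed in the ventricular free walls of neonatal rats were examined. The members were selected on their measured level. A gene was taken when the deposited table gave it the lincRNA biotype, when its mean FPKM (fragments per kilobase of gene, scaled to the size of the library) over the 12 libraries was at least 1, and when it did not lie on X or Y. Of 32545 genes in the table, 3023 were lincRNAs, and 100 of these met the rule. Of the other lincRNAs, 1774 were listed at 0 in all 12 libraries, 1139 were above 0 with a mean below 1, and 10 reached 1 FPKM on X or Y. The choice therefore used the level itself, and the levels below are given as a description.

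The libraries came from SD (Sprague–Dawley) rats operated on at postnatal day 1 and examined at postnatal day 7, and each of the 4 groups had 3 libraries. Sham LV and sham RV were the left and right ventricular free walls after a sham operation, and VO LV and VO RV were the same walls after a fistula between the abdominal aorta and the inferior vena cava, which causes volume overload (VO). No transgene or agent was named in the labels. The labels did not say which LV and RV came from 1 animal or whether the libraries were from separate litters, so p-values cover the spread between these libraries. These were whole pieces of myocardium, in which fewer cells of a type and less RNA per cell cannot be told apart.

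LincRNAs are transcripts of RNA polymerase II that carry no long open reading frame and lie outside coding genes. Many are spliced and polyadenylated like messenger RNAs, but they are usually less abundant and more restricted to a tissue or a developmental stage. Some act close to the site where they are made, on the transcription of a neighbouring gene, others act elsewhere in the nucleus or the cytoplasm, and some are mainly hosts from whose introns microRNAs or small nucleolar RNAs are cut. In the heart, well-known examples lie beside genes of cardiac transcription factors. The mouse transcript Upperhand, for instance, starts next to Hand2, a transcription factor needed for the growth of the right ventricle, and runs away from it.

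Depth and the make-up of the samples set the frame for these values. Between 14121713 and 16871371 reads fell on genes in a library. The 8 ventricular cardiomyocyte markers (among them Myl2, Myh6 and Tnnt2) were all expressed, with summed levels from 16271 to 24745 FPKM. Of the atrial markers, Sln reached 97.7 FPKM in sham RV 1 and 388 FPKM in VO RV 2 and was below 1 FPKM in the other 10 libraries, and Bmp10 was at 12.6 and 72.4 FPKM there and near 0 elsewhere. Myl7 was also highest in those 2 RV libraries (138 and 463 FPKM), while Myl4 and Nppa were highest in VO RV 2 only and in sham RV 1 lay within the range of the other libraries. The summed level of the 5 atrial markers was 4559 FPKM in VO RV 2 and 1065 FPKM in sham RV 1, against 212 to 1729 FPKM in the other 10 libraries. The 5 Y-linked genes summed to between 57.1 and 65.5 FPKM in sham LV 1 and 2, sham RV 1 and 2 and VO RV 3, and to at most 0.0343 FPKM in the other 7 libraries, which include every VO LV library.

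The lincRNAs were low in level. Their mean FPKM ran from 1.02 to 55.1 with a median of 2.63, while the 11548 autosomal coding genes that reached 1 FPKM had a median of 9.87. Only 12 of the 100 reached 10 FPKM, and 72 were below 5 FPKM. The transcripts were also short, with a median gene length of 800 bases against 2310 bases for those coding genes. In all, 97 of the 100 were above 0 in every library, but 30 had fewer than 10 reads in at least 1 library, so that counting error is large for them. The mean of 9 of the 100 was below 1 FPKM without their highest group, so that they reached the threshold through the group in which they were high. Just inside the threshold were AC141169.2 (1.03 FPKM) and AC097901.1 (1.02 FPKM), and just outside were AABR07028036.1 (0.995 FPKM) and LOC102547954 (0.994 FPKM).

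**Figure D1:**
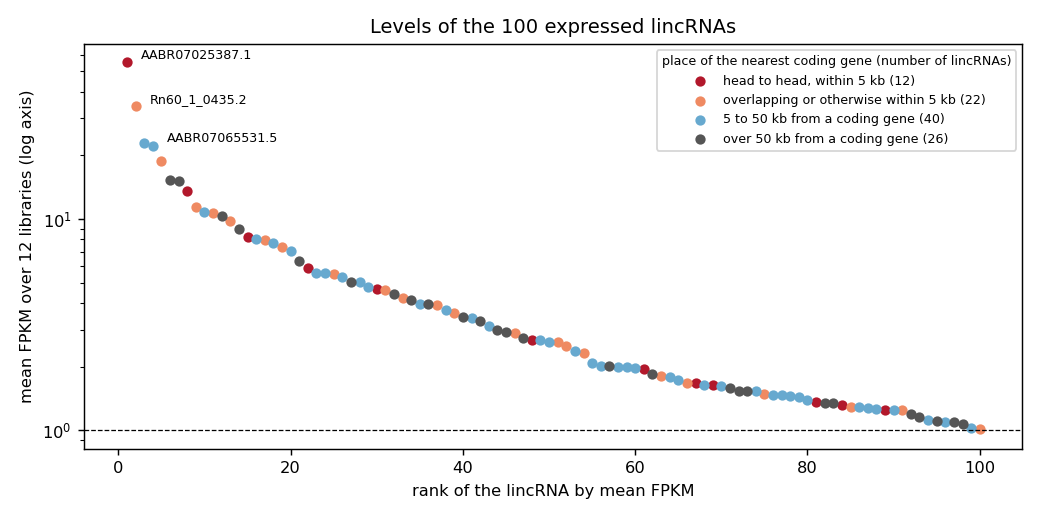
Mean FPKM over 12 libraries (log axis) of each of the 100 lincRNAs, in order of level, coloured by the place of the nearest coding gene. The level falls from 55.1 FPKM for AABR07025387.1 to 1.02 FPKM and the dashed line marks the threshold of 1 FPKM.

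Almost none of them has a familiar name. In 99 of the 100 the symbol is derived from a clone or contig (AABR, AC or Rn60), and only LOC102549726 matched a RefSeq symbol. Of 120 symbols of known noncoding RNAs (imprinted, small nucleolar RNA hosts, microRNA hosts, scaffold RNAs, heart and vessel RNAs and former noncoding RNAs with a micropeptide), 8 were in the table and 2 of these had the lincRNA biotype. Both were below the threshold. Fendrr, which is required for the development of the heart and body wall, had a mean of 0.0135 FPKM, and Miat was listed at 0 in every library. The expressed lincRNAs are therefore described here by their neighbours.

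The expressed lincRNAs lay nearer to coding genes than the silent or low ones. A coding gene overlapped the span or lay within 5 kb in 34 of the 100, of which 12 were head to head (opposite strands with the 5′ ends facing each other), 12 were upstream on the same strand, 4 were downstream on the same strand, 2 were tail to tail and 4 overlapped. Among the 2814 other autosomal lincRNAs, 5.05% were head to head and 3.38% upstream on the same strand, against 12% and 12% of the expressed ones. A distance of over 50 kb was found for 26% of the expressed and 49.8% of the other lincRNAs. These shares are a description, with no test.

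The highest lincRNA stood head to head with Hand2. AABR07025387.1 (chr16:36374593-36388331, plus strand, coordinates as in the deposited table, whose build is not given in the sources used here) begins 1046 bases from the 5′ end of Hand2, which runs on the minus strand. It had 68.5, 68.4 and 62.7 FPKM for sham LV, 54.1, 48.5 and 54.2 for sham RV, 55.6, 55.9 and 41.7 for VO LV, and 59.8, 36.4 and 55.1 for VO RV. Every sham LV library was thus above every sham RV and every VO LV library, while the VO groups overlapped each other. The fold was 1.27 between sham LV and sham RV and 1.31 between sham LV and VO LV, and neither passed the adjusted test (adjusted p = 0.222 and 0.198). Hand2 itself was at 14.8 ± 5.15 FPKM for sham LV, 14.0 ± 0.992 for sham RV, 14.8 ± 1.66 for VO LV and 17.3 ± 2.31 for VO RV (SD, n = 3), and its own log2 fold change between sham LV and sham RV was 0.02 (SE 0.21). The lincRNA was therefore higher per length than its coding neighbour in every library.

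A second expressed lincRNA lay on the other side of Hand2. AABR07025386.1 (chr16:36294631-36297382, minus strand) has its 5′ end 74106 bases from the 3′ end of Hand2, which is on the same strand. Its levels were 17.3, 17.3 and 13.2 FPKM for sham LV, 13.2, 14.9 and 17.6 for sham RV, 12.9, 13.2 and 12.8 for VO LV, and 17.1, 15.0 and 19.9 for VO RV. The VO LV libraries lay below all VO RV libraries (log2 fold change -0.40, SE 0.14, adjusted p = 0.333, limma), and sham LV and sham RV overlapped. The region around the start of Hand2 is shown because the highest lincRNA faces it. In this and the other start regions, 300 bases read 5′ to 3′ on the strand of the gene from RefSeq (GRCr8), capitals mark CG dinucleotides, which mark the start regions of many broadly used and developmental genes.
Hand2 (chr16:37931439-37931738, minus strand): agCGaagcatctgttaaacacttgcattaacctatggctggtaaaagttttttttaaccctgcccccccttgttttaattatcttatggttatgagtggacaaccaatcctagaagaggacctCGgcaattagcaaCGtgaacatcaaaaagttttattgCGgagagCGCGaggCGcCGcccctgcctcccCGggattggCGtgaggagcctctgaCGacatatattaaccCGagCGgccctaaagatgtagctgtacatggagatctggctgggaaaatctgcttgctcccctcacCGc

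**Figure D2:**
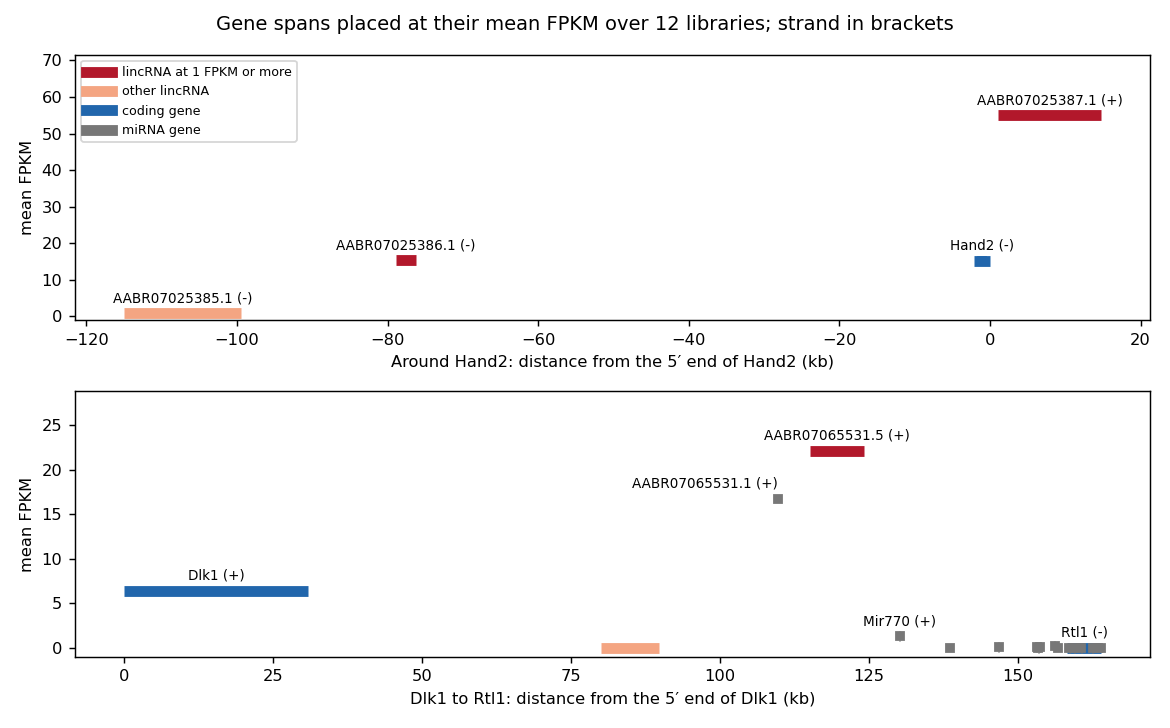
Gene spans in 2 regions, placed by distance in kb (x axis) and by mean FPKM over 12 libraries (y axis), with coding genes in blue, lincRNAs of at least 1 FPKM in red, other lincRNAs in orange and microRNA genes in grey. AABR07025387.1 at 55.1 FPKM faces Hand2 at 15.2 FPKM, and AABR07065531.5 at 22.2 FPKM lies between Dlk1 at 6.41 FPKM and Rtl1, which was near 0.

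Gata2 and Fgf9 also had a lincRNA that faced their start. Gata2 is a zinc-finger transcription factor of endothelial and blood-forming cells, and Fgf9 is a growth factor that reaches cardiomyocytes in the developing heart. AABR07061382.2 lay 695 bases from Gata2 and AABR07018064.1 lay 165 bases from Fgf9, which is why both start regions are shown.
Gata2 (chr4:122216031-122216330, plus strand): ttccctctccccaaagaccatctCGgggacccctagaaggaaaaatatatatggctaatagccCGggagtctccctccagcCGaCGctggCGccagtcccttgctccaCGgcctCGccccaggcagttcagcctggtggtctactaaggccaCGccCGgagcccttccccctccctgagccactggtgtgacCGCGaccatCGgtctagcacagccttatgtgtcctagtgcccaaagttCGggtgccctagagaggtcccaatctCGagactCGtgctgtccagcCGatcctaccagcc
Fgf9 (chr15:36327108-36327407, plus strand): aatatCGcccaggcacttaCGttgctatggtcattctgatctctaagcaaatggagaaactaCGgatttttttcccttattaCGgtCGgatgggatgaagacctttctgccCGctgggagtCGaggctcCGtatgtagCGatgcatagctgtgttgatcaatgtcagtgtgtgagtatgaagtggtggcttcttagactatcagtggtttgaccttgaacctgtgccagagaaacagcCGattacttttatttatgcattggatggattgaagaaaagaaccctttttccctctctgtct

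AABR07061382.2 had 2.04, 3.87 and 1.46 FPKM for sham LV, 1.86, 1.32 and 1.71 for sham RV, 1.11, 1.04 and 1.01 for VO LV, and 1.26, 1.38 and 1.59 for VO RV. All 3 VO LV libraries were below all sham LV libraries, with a log2 fold change of -0.85 (SE 0.25, adjusted p = 0.0902, limma). Gata2 was also lower, with a change in mean from 6.28 ± 0.777 FPKM in sham LV to 4.19 ± 0.406 in VO LV (SD, n = 3), with a log2 fold change of -0.53 (SE 0.13) and an adjusted p of 0.0663. Neither passed the adjusted test. AABR07018064.1 overlapped between the groups in all 4 comparisons, with means of 5.24 and 4.29 FPKM in the sham LV and RV and 4.68 and 4.42 FPKM in the VO LV and RV.

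The other head-to-head partners were Cd99, Ncoa3, Morc2, Arpin, Nacc2, Plcg1, Usp3, Pan3 and LOC100360573. Of the 12 coding partners, 10 had a start region in the RefSeq table, and these held 10 to 47 CG dinucleotides with a median of 20.5. The median was 11 over the 21851 start regions of coding genes and 7 over all 33469 start regions, of which 41.5% held at least 10. Coding genes 5 to 50 kb from an expressed lincRNA had a median of 24, so the count was not particular to the genes that face one. In sham LV against sham RV, 11 of 12 head-to-head pairs had a lincRNA and a coding gene with the same sign of fold change, and in VO LV against sham LV it was 9 of 12. For the lincRNAs upstream on the same strand the counts were 10 of 12 and 9 of 12, and for those 5 to 50 kb away with a tested neighbour, 10 of 27 and 14 of 27. Whether the counting used strand is not given in the sources used here, so it is not known whether reads of overlapping antisense genes were separated, and reads of a longer coding transcript that runs into a lincRNA on its strand cannot be told apart from those of the lincRNA. Their part in these pairs was not tested.

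**Figure D3:**
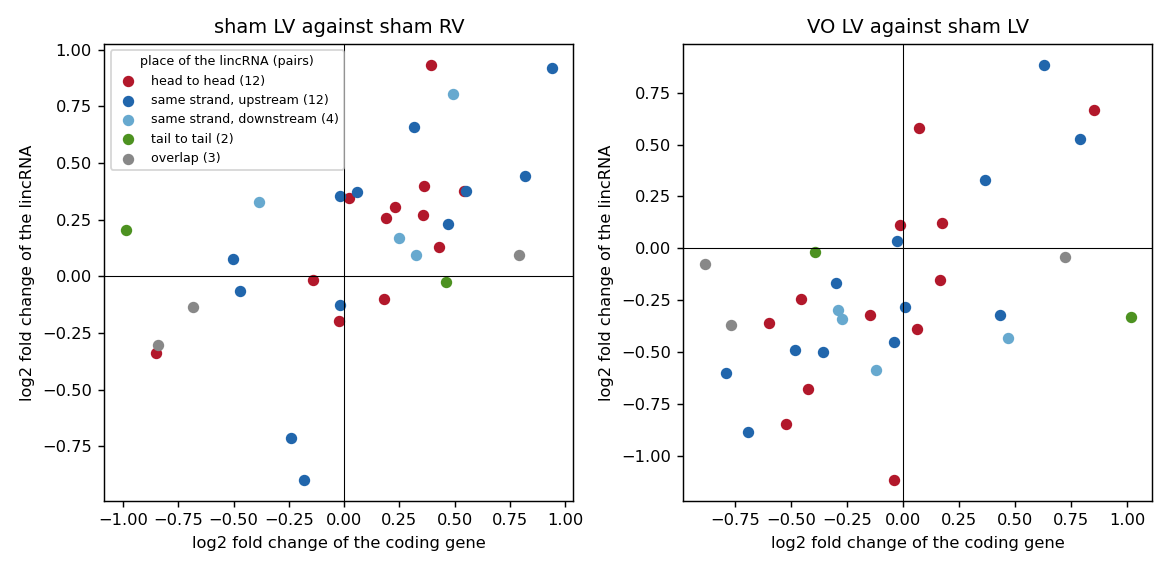
The log2 fold change of each lincRNA (y axis) against that of the coding gene within 5 kb (x axis) in sham LV against sham RV and in VO LV against sham LV, with the arrangement of the pair in colour. Most head-to-head pairs lie at the lower left and upper right (11 of 12 and 9 of 12), and the 1 tail-to-tail pair at the far left and far right is AABR07070131.1 with Ncam1.

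Ncam1, a cell adhesion molecule, lay tail to tail with a lincRNA, an arrangement outside these counts. Of the 2 tail-to-tail pairs, 0 had the same sign in sham LV against sham RV and 1 in VO LV against sham LV. AABR07070131.1 ends 477 bases from the end of Ncam1 on the opposite strand, and its log2 fold change was 0.20 between sham LV and sham RV where that of Ncam1 was -0.99 (SE 0.25, adjusted p = 0.0508). In VO LV against sham LV the lincRNA was at -0.33 and Ncam1 at 1.02 (SE 0.25, adjusted p = 0.0662). Ncam1 had 8.44, 4.85 and 9.40 FPKM in sham LV and 18.3, 15.4 and 11.9 in sham RV, which do not overlap.

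In the sham-operated hearts, which show how the neonatal LV and RV differ without overload, 3 lincRNAs were called different, and 0 were called without any 1 of sham LV 1, sham LV 2, sham RV 1, sham RV 2 or VO LV 2 or with the replicate number as a block. A gene was called when its fold exceeded 1.3 and its adjusted p was under 0.05, and a weaker criterion took the unadjusted p under 0.05 with that fold. The called lincRNAs were 3 of 100 against 3.86% of the 13910 genes tested. The calls over all genes depended on single libraries, with 537 genes called in all libraries but 0 without sham RV 1, 1 without sham LV 2 and 3 without sham LV 1 or with that block. At the unadjusted p there were 20 of 100 against 17.8%, of which 13 were higher in the LV (8.19% of all genes) and 7 lower (9.63%). The ranges of sham LV and sham RV did not overlap for 30 of 100 against 32.2%. These counts were near the background in total, and the median log2 fold change was 0.09 over the lincRNAs and 0.01 over all genes. The split of 13 higher to 7 lower depended on the setting: it was 9 to 8 with the atrial markers as a covariate, and 8 to 7 with a median of 0.04 without sham LV 2. All 3 red blood cell markers tested were also higher in sham LV at the unadjusted p (mean summed level 3402 FPKM for sham LV and 1834 for sham RV), as were 2 of 4 endothelial markers. Of the 8 cardiomyocyte markers, Myh6, Myh7 and Ryr2 were lower (log2 fold change -0.50, -0.46 and -0.94) and Tnni3 was higher (0.57), and the part of these lists in the result was not tested.

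AABR07017268.1 had the largest change of the called lincRNAs, but it is 1 of the 9 that reached the threshold through their highest group (mean 2.77 FPKM in sham LV and 0.873 FPKM over the other groups), which favours a difference. This transcript (chr15:20339744-20343099, plus strand) lies 307552 bases from the nearest coding gene, Ddhd1. It had 2.60, 3.14 and 2.55 FPKM in sham LV and 0.408, 0.445 and 0.936 in sham RV. The groups were far apart, with a log2 fold change of 1.60 (SE 0.29, adjusted p = 0.0325, limma), and the value ran from 1.25 with a pseudocount of 1 to 2.27 on reads. In VO LV it was 2.60 in 1 library and 0.939 and 0.987 in the others, so that VO LV overlapped sham LV, and in VO RV it was 0.453, 0.446 and 0.641.

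Rn60_1_0435.2 was 1.75-fold higher in sham LV. It had 42.8, 54.1 and 46.8 FPKM for sham LV, 22.2, 29.2 and 30.5 for sham RV, 33.0, 35.2 and 27.0 for VO LV, and 30.02, 23.6 and 34.8 for VO RV. The sham LV libraries were above all others, and the other 3 groups overlapped (sham LV against sham RV log2 fold change 0.81, SE 0.17, adjusted p = 0.0361, limma). It lies on chr1:42133308-42134374 on the plus strand, 1760 bases downstream of Myct1 on the same strand, a gene expressed by endothelial cells. Myct1 had 36.2, 31.4 and 40.1 FPKM in sham LV and 27.3, 26.3 and 22.4 in sham RV, also without overlap (log2 fold change 0.49, SE 0.13, adjusted p = 0.0542). Whether its reads belong to a longer Myct1 transcript was not tested. In VO LV against sham LV, Rn60_1_0435.2 was at -0.59 (SE 0.17, adjusted p = 0.0848) and Myct1 at -0.12 (SE 0.13). The 4 endothelial markers in the table summed to 297 to 319 FPKM for sham LV, 221 to 241 for sham RV, 252 to 282 for VO LV and 217 to 261 for VO RV, and their part in the result was not tested.

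AABR07002969.1 was the called lincRNA that was lower in the sham LV. It lies on chr1:90820595-90848674 on the plus strand, 70401 bases from the nearest coding gene, Capns1. It had 12.6, 10.4 and 13.2 FPKM for sham LV, 20.2, 17.3 and 18.3 for sham RV, 15.5, 16.5 and 16.3 for VO LV, and 13.8, 14.7 and 13.6 for VO RV. No pair of groups overlapped in any of the 4 comparisons, and VO LV and VO RV lay between the sham groups. The log2 fold change between sham LV and sham RV was -0.61 (SE 0.10, adjusted p = 0.0319, limma). The exact two-sided permutation test on FPKM gave p = 0.1, the smallest that 3 against 3 libraries can give.

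Other lincRNAs had differences as large or larger and missed the adjusted test. AABR07026037.1 (chr16:60393417-60394957, plus strand) was lower in sham LV with 0.342, 0 and 0.760 FPKM against 3.82, 1.11 and 1.77 in sham RV (log2 fold change -1.63, SE 0.43, adjusted p = 0.0548), but at most 12 reads lay behind any value. AABR07005985.2 had 0.451, 0.941 and 0.501 FPKM against 2.02, 2.25 and 1.12 (log2 fold change -1.01, adjusted p = 0.0586). It reached the threshold only through sham RV (mean 1.79 FPKM, and 0.89 over the other groups), which favours a difference. AABR07001555.1 had 7.23, 4.28 and 8.22 FPKM against 10.3, 11.0 and 13.5 (log2 fold change -0.81, adjusted p = 0.0788). On the higher side, Rn60_13_0801.2 had 3.72, 4.94 and 3.15 FPKM in sham LV and 1.45, 2.71 and 1.47 in sham RV (log2 fold change 0.92, adjusted p = 0.0633), and Sec16b, a gene of the secretory pathway that lies 3230 bases away on the same strand, was at 0.94. AC128986.1, head to head with the phospholipase gene Plcg1, was at 0.93 (adjusted p = 0.19).

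**Figure D4:**
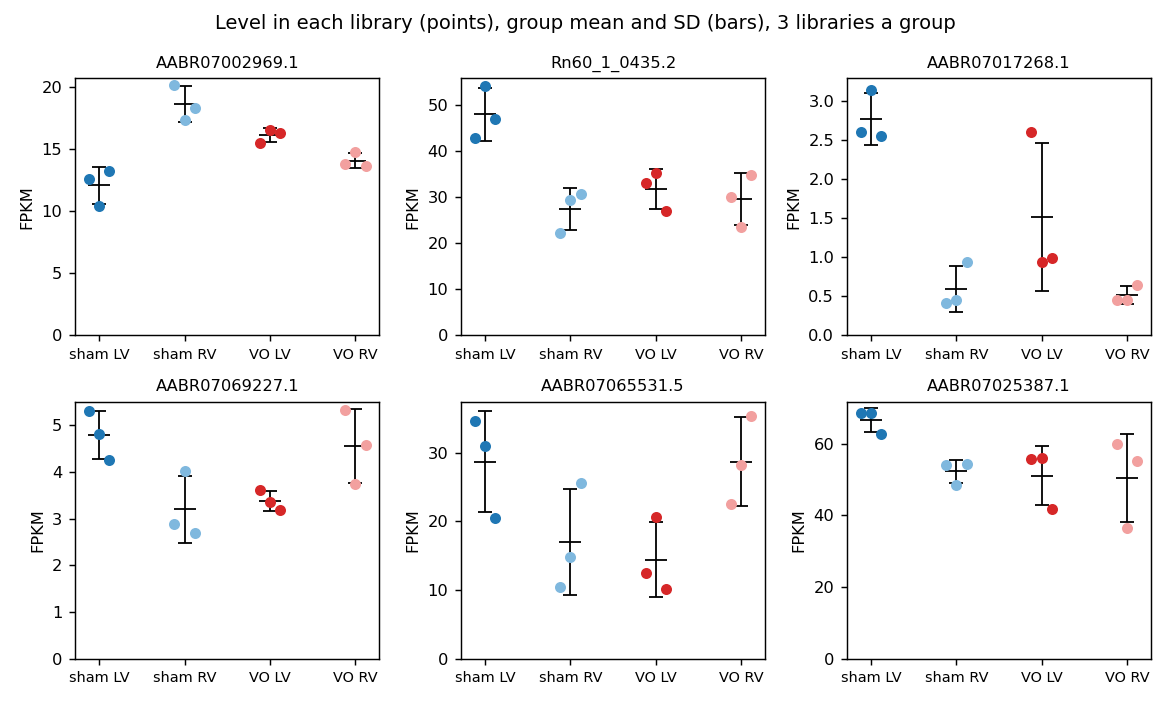
FPKM of 6 lincRNAs in each library (points) with the group mean and SD (bars, 3 libraries a group). AABR07002969.1 runs lowest in sham LV and highest in sham RV, Rn60_1_0435.2 and AABR07025387.1 are highest in sham LV, and AABR07065531.5 and AABR07069227.1 have lower means in VO LV than in sham LV and higher means in VO RV than in sham RV.

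Volume overload of the LV gave no called lincRNA, 0 of 100 against 0.0935% of all genes with an adjusted p under 0.05 (13 of 13910, limma), and voom on the recovered reads also called 0, with 197 genes called in all. Over the other settings the calls among all genes ran as high as 704 with array weights, where 2 lincRNAs were called, and 555 without VO RV 3, where 2 were called as well. At the unadjusted p there were 19 of 100 against 15.7%. Of these, 14 were lower in VO LV where 6.44% of all genes were lower, and 5 were higher where 9.27% were higher. The ranges of VO LV and sham LV did not overlap for 36 lincRNAs against 32.4%. Thus 14 of 19 lincRNAs at the unadjusted p were lower, whereas 1289 of 2185 genes at that p were higher. The lincRNA split was 5 higher and 8 lower without VO LV 3. The median log2 fold change was -0.16 over the lincRNAs and -0.02 over all genes, and 41 of the 100 were above 0. No VO LV library held Y-linked transcripts while 2 of the 3 sham LV libraries did. With the Y-linked level as a covariate 13 lincRNAs met the unadjusted criterion, 4 higher and 9 lower, against 1309 of 13910 genes. Of the cardiomyocyte markers, 3 of 8 were higher and 1 was lower in VO LV at that p, and their part was not tested.

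The smallest p of these belonged to AABR07026924.1, which was higher in VO LV. It had 2.64, 2.10 and 3.31 FPKM in sham LV and 5.03, 4.42 and 3.92 in VO LV, without overlap, with a log2 fold change of 0.65 (SE 0.15, adjusted p = 0.0612, limma), and lies 168558 bases from Gas1. AABR07004404.1 had 2.64, 5.68 and 3.13 FPKM in sham LV and 1.68, 1.14 and 1.43 in VO LV (log2 fold change -1.11, SE 0.28, adjusted p = 0.0703). It lies 2233 bases head to head with Arpin, an inhibitor of the Arp2/3 complex of the actin cytoskeleton, whose own log2 fold change was -0.04. AABR07051177.1 had 2.96, 8.26 and 4.11 FPKM in sham LV and 2.82, 2.40 and 1.17 in VO LV (log2 fold change -1.04, adjusted p = 0.135). AABR07026037.1, at 0 to 0.760 FPKM in sham LV, had 1.63, 1.59 and 2.16 FPKM in VO LV (log2 fold change 1.49, adjusted p = 0.0856), and AABR07017159.1 was at 0.98 (adjusted p = 0.101) on at most 8 reads in a library. AABR07017159.1 reached the threshold only through VO LV (mean 1.73 FPKM, and 0.859 over the other groups), which favours a difference.

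Volume overload of the RV also gave 0 called lincRNAs with limma and with voom, and 0% of all genes were called. At the unadjusted p there were 7 of 100 against 4.91%, of which 3 were higher (1.85% of all genes) and 4 lower (3.06%), and the ranges of VO RV and sham RV did not overlap for 10 of 100 against 12.5%. The split turned with the setting, to 5 higher and 1 lower with voom and with array weights and to 9 and 5 without VO RV 2, with a median of 0.11. Of the 5 macrophage markers, 3 were higher in VO RV at the unadjusted p (mean summed level 34.5 FPKM for sham RV and 50.2 for VO RV), 2 of 8 cardiomyocyte markers were lower, and their part in these counts was not tested. The median log2 fold change was -0.03 over the lincRNAs and 0.00 over all genes. Rn60_20_0056.5, which lies 979 bases downstream of Mdc1 on the same strand, had 7.00, 6.94 and 11.0 FPKM in sham RV and 14.6, 10.03 and 13.4 in VO RV (log2 fold change 0.60, SE 0.20, adjusted p = 0.542, limma). Rn60_1_1362.2, whose span overlaps Fam174b, was at -0.49 (adjusted p = 0.588). AABR07072841.1, 89 bases head to head with Nacc2, was at -0.90 (adjusted p = 0.582) and AC115341.2 at -0.42 (adjusted p = 0.579).

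Between the overloaded ventricles 0 lincRNAs were called against 0.00719% of all genes, which is 1 gene (limma), and voom called 0 lincRNAs. At the unadjusted p there were 14 of 100 against 7.4%, of which 6 were higher in VO LV (3.85% of all genes) and 8 lower (3.56%), a split that was 3 to 10 without VO LV 1 and 7 to 14 without VO RV 2. The ranges did not overlap for 17 of 100 against 16.1%. In the same comparison 4 of 6 fibroblast markers were lower in VO LV at the unadjusted p, with a mean summed level of 2215 FPKM for VO LV and 3275 for VO RV, where VO RV 2 stood apart at 4611 FPKM. Of the cardiomyocyte markers, 3 of 8 were higher in VO LV, and the part of either list in the counts was not tested. AABR07005985.2 had 0.257, 0.251 and 0.488 FPKM in VO LV and 1.77, 1.16 and 2.19 in VO RV, without overlap (log2 fold change -1.39, SE 0.27, adjusted p = 0.216). It did not pass the adjusted test in either ventricle comparison and, like AABR07000382.1, is among the 9 lincRNAs that reached the threshold through their highest group, with a mean of 0.89 FPKM without sham RV. AABR07051177.1 was at -1.48 (adjusted p = 0.25), with 7.46, 4.45 and 8.32 FPKM in VO RV. The lowest value, -2.40, was of AABR07000382.1 (adjusted p = 0.351), whose levels were 4.23 and 8.41 FPKM in VO RV 1 and 3 and 3.77 FPKM in sham RV 2 but at most 0.249 FPKM in the other 9 libraries. AABR07072841.1 was at 1.23 (adjusted p = 0.312), AABR07006657.1 at 1.03 (adjusted p = 0.435) and AABR07017268.1 at 0.90 (adjusted p = 0.317).

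The test of whether the LV and the RV responded differently to VO called 2 lincRNAs, 2 of 100 against 4.19% of all genes (583 genes, but 0 without sham LV 1, sham LV 2, sham RV 1, VO LV 2 or VO LV 3). The lincRNA calls were 0 without any 1 of these libraries or of sham RV 2 or VO RV 3. With the replicate number as a block 0 lincRNAs and 1 gene were called. This contrast uses the same 12 libraries as those above and subtracts the RV response from the LV response. At the unadjusted p there were 20 of 100 against 23.1%, of which 7 had a higher response in the LV (13.1% of all genes) and 13 a lower one (9.94%), a split that was 8 to 9 without sham RV 1 and 9 to 10 without VO RV 1. In this contrast 3 of 5 macrophage markers had a lower and 3 of 8 cardiomyocyte markers a higher response in the LV at the unadjusted p, and their part was not tested. The median was -0.19 over the lincRNAs and -0.04 over all genes.

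AABR07002969.1, described above, was higher in VO LV than in sham LV and lower in VO RV than in sham RV. Its log2 fold change was 0.41 (SE 0.10, adjusted p = 0.0637) in VO LV against sham LV and -0.39 (SE 0.10, adjusted p = 0.536) in VO RV against sham RV. The difference was 0.80 (SE 0.14, adjusted p = 0.0249, limma). It includes the sham LV against sham RV gap of -0.61 from the same sham libraries, so it is not separate from the sham call. AABR07069227.1 went the other way. It lies on chr8:13523606-13526025 on the minus strand, 10268 bases from Kdm4d, which was listed at 0 in all libraries. Its levels were 5.29, 4.81 and 4.26 FPKM for sham LV, 2.88, 4.01 and 2.69 for sham RV, 3.61, 3.35 and 3.18 for VO LV, and 5.33, 3.74 and 4.58 for VO RV. VO LV lay below sham LV without overlap, and VO RV overlapped sham RV. The LV response was -0.44 (SE 0.16), the RV response 0.46 (SE 0.16) and the difference -0.90 (SE 0.22, adjusted p = 0.0491, limma). Neither response of AABR07069227.1 passed by itself (adjusted p = 0.136 in the LV and 0.547 in the RV). Without sham RV 1 and VO RV 2, the libraries high in Sln, Bmp10 and Myl7, the differences were 0.78 for AABR07002969.1 and -0.96 for AABR07069227.1, and neither was called (adjusted p = 0.0619 and 0.0825, limma). In the sham comparison that setting gave 1.48 for AABR07017268.1, 0.66 for Rn60_1_0435.2 and -0.56 for AABR07002969.1 (adjusted p from 0.109 to 0.11). With the mean log2 level of the atrial markers other than Nppa as a covariate on all 12 libraries, all 5 calls held (adjusted p from 0.0155 to 0.0441). With the Y-linked level as the covariate AABR07069227.1 was not called in the difference (-0.84, adjusted p = 0.0737, limma). The other calls held with it (adjusted p from 0.0336 to 0.0433). On the recovered reads neither difference was called (adjusted p = 0.0676 and 0.0593, voom).

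AABR07065531.5 had the largest negative difference between the responses and just missed the test. AABR07051177.1 was at -1.797 (adjusted p = 0.07) and Rn60_13_0801.2 at -1.145 (adjusted p = 0.0852, limma). The largest positive ones were AABR07026037.1 at 1.91 (adjusted p = 0.087), AABR07072841.1 at 1.57 (adjusted p = 0.116) and AABR07017159.1 at 1.07 (adjusted p = 0.151, limma). The last of these reached the threshold only through VO LV. AABR07065531.5 is a plus-strand transcript (chr6:133667975-133676907) between Dlk1 and Rtl1, ending 6049 bases before Mir770. Its levels were 34.6, 30.9 and 20.4 FPKM for sham LV, 10.5, 14.9 and 25.5 for sham RV, 12.5, 20.6 and 10.2 for VO LV, and 22.6, 28.1 and 35.4 for VO RV. VO LV and VO RV did not overlap, while each VO group overlapped its sham group. The log2 fold change was -0.99 (SE 0.33) in the LV and 0.81 (SE 0.33) in the RV, and the difference was -1.80 (SE 0.47, adjusted p = 0.054, limma). The adjusted p was 0.0396 on the reads recovered from the FPKM and 0.138 without VO LV 3.

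This stretch is imprinted, and in it Dlk1, a ligand-like membrane protein of immature cells, is read from the paternal and Meg3, a noncoding RNA, from the maternal chromosome. RefSeq places 1 long noncoding RNA between Dlk1 and Mir770, which is Meg3, but the table gives AABR07065531.5 no such name and the match was made by gene order only. The start region of Meg3 is shown for this reason.
Meg3 (chr6:134273806-134274105, plus strand): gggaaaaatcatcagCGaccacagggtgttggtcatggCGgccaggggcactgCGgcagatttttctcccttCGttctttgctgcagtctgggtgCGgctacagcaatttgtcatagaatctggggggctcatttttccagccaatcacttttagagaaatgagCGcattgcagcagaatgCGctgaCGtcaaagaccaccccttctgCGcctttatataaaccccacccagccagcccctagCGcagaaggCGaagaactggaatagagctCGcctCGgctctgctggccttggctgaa

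Of the neighbours of AABR07065531.5, Dlk1 was at 8.76 ± 0.390 FPKM for sham LV, 6.51 ± 0.974 for sham RV, 5.41 ± 1.83 for VO LV and 4.96 ± 0.108 for VO RV (SD, n = 3), and its VO libraries lay below the sham libraries of the same ventricle. AABR07065531.1, an 80-base microRNA gene 5371 bases upstream on the same strand, had 26.01, 12.3 and 11.7 FPKM for sham LV, 13.6, 7.93 and 15.98 for sham RV, 13.1, 15.1 and 8.79 for VO LV, and 19.3, 31.4 and 25.9 for VO RV. Its VO RV libraries lay above all sham RV libraries, and its fold change had the sign of that of AABR07065531.5 in each comparison, with a difference between the responses of -1.39 (SE 0.47, adjusted p = 0.108, limma). Mature microRNAs carry no poly-A tail and are not retained by poly-T selection.

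Only 1 lincRNA held small RNA genes in its span. LOC102549726 contains SNORD48 and SNORD52, which guide the modification of ribosomal RNA and are cut from introns of host genes. The host had 8.93, 10.3 and 6.69 FPKM for sham LV, 8.55, 7.17 and 8.14 for sham RV, 6.58, 6.65 and 6.12 for VO LV, and 7.37, 6.01 and 12.8 for VO RV. VO LV lay below sham LV without overlap, with a log2 fold change of -0.37 (SE 0.22, adjusted p = 0.335, limma). SNORD48 had a mean of 0.0917 FPKM and SNORD52 was at 0. Its span also overlaps RT1-CE2, RT1-CE4 and RT1-CE7, class I histocompatibility genes, on the same strand, so shared reads cannot be told apart. It is the one expressed lincRNA whose name matched a RefSeq symbol, and its start region is therefore shown. RefSeq gives it the plus strand of its build and the table the minus strand.
LOC102549726 (chr20:3880958-3881257, plus strand): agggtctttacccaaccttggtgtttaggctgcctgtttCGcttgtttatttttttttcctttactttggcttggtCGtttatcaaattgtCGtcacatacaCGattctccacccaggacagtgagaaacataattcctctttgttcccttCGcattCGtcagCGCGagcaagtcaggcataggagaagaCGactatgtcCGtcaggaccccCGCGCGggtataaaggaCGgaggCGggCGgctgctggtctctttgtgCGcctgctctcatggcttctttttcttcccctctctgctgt

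**Figure D5:**
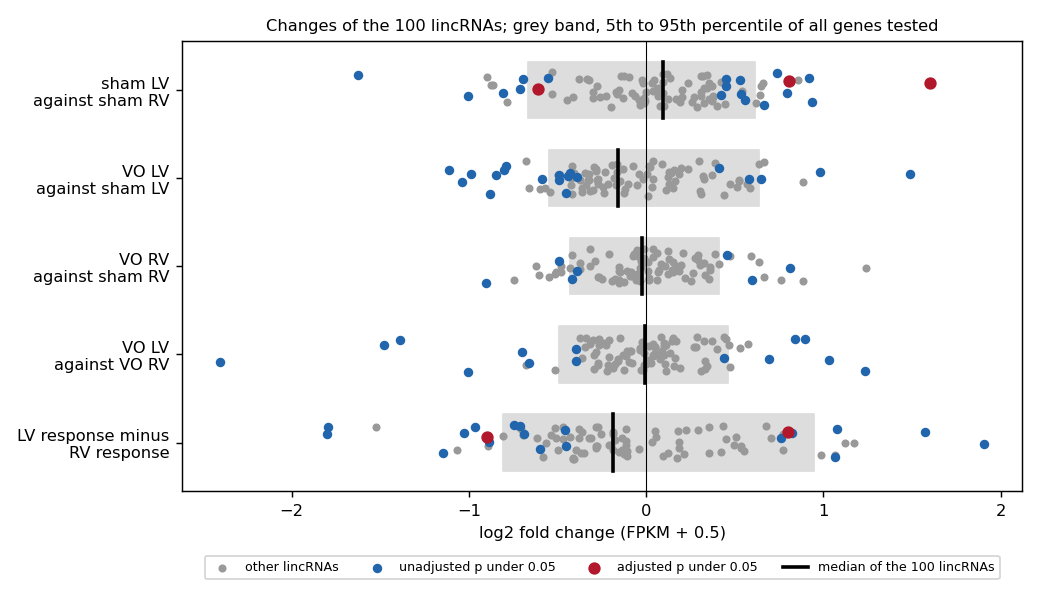
Log2 fold change of the 100 lincRNAs (points) in each comparison, with grey bands from the 5th to the 95th percentile of all 13910 genes tested and a black line at the median of the lincRNAs. Red points are the called lincRNAs (3 in sham LV against sham RV and 2 in the difference of the responses), and the black line lies left of 0 in VO LV against sham LV at -0.16.

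The spread among libraries of 1 group was larger for lincRNAs than for coding genes, which were not matched to them in level, length or number of reads. The median SD of log2(FPKM + 0.5) within groups was 0.346 for the 100 lincRNAs and 0.178 for the 10466 autosomal coding genes with a mean from 1 to 60 FPKM. It was largest for AABR07000382.1 at 1.25. The summed level of the 100 lincRNAs ran from 439 to 583 FPKM in the 12 libraries.

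The other lincRNAs among the highest 10 had these ranges. AABR07052523.2 ran from 10.7 to 31.7 FPKM over all libraries, AABR07030598.1 from 10.4 to 24.1, AABR07045680.1 from 10.7 to 17.5, Rn60_1_1362.2 from 8.13 to 16.2 and AABR07031489.1, 13797 bases from Ttr, from 8.22 to 14.5. None of the 5 passed the unadjusted criterion in sham LV against sham RV or in VO LV against sham LV.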

How the data were processed

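RNA-seq of LV and RV free walls was read from 1 deposited table of 12 libraries, 3 for either ventricle after sham or VO surgery. The authors selected RNA on poly-T beads, aligned paired-end reads with HISAT2 2.0.5 and counted with featureCounts 1.5.0-p3, per the submitters' processing notes, and the deposited unit is FPKM. The genome build, the annotation release, whether the libraries kept strand and the strand setting are not given in the sources used here. Gene names, coordinates, biotypes and lengths are those of the table.

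Each library was rescaled by a size factor (median of ratios), and log2(FPKM + 0.5) was used. Genes averaging 0.5 FPKM or more (13910) were fitted in limma 3.58.1 (R 4.3.3) with 4 group means and a trended prior, for 5 contrasts, with Benjamini-Hochberg adjustment over all genes. Fold changes are on the log2(FPKM + 0.5) scale, which understates changes of low genes. A call was an adjusted p under 0.05 with a fold over 1.3. Reads were recovered from FPKM and gene length (100% of values under 200 reads whole within 0.02) and fitted with voom as an alternative. The fit was tested on simulated data.

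Members and lists were chosen with earlier results of these data known. The named lincRNAs are those called, the 10 highest, the 3 with the largest changes in each direction per comparison at the unadjusted p, those beside the threshold and the host of small RNA genes. Neighbours such as Gata2, Fgf9, Ncam1, Dlk1 and Myct1 and their lincRNAs were picked for the neighbouring gene after values were seen. Distances count the bases between gene spans in the table. Same-numbered LV and RV libraries did not deviate together (correlations from -0.219 to 0.123), so the numbers were not used as pairs in the main fit. The Y-linked sums of sham LV and sham RV were high or at 0 in the same numbers. In the VO groups VO LV 3 was at 0 and VO RV 3 at 57.1 FPKM.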

Additional observations from a re-analysis of the deposited data

Results flagged for a closer look

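The responses of LV and RV to VO differed in the tested contrast for 2 of the 100 lincRNAs, against 4.19% of all 13910 genes tested. The share of lincRNAs was thus not above that of all genes. Both are listed because the test of that difference called them. No single response of either passed the adjusted test (adjusted p = 0.0637 in the LV and 0.536 in the RV for AABR07002969.1, and 0.136 and 0.547 for AABR07069227.1, limma). For AABR07002969.1 the LV response minus the RV response was 0.80 on the log2 scale (SE 0.14, limma adjusted p = 0.0249), with VO LV above sham LV and VO RV below sham RV in all 3 libraries of each. This difference includes the sham LV against sham RV gap of -0.61, so it is not separate from the sham call of that lincRNA. For AABR07069227.1 it was -0.90 (SE 0.22, limma adjusted p = 0.0491), with VO LV below sham LV in 3 of 3 libraries and VO RV overlapping sham RV. The number of reads behind a value was 83 to 164 for the first and 59 to 120 for the second. The calls held in 13 and 8 of 24 alternatives. With the replicate block the adjusted p was 0.0637 and 0.0856 (limma), and with voom 0.0676 and 0.0593. No lincRNA was called without any 1 of sham LV 1, sham LV 2, sham RV 1, sham RV 2, VO LV 2, VO LV 3 or VO RV 3.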

How the results depend on the processing

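All 34 member results kept their direction in all 24 alternatives each. They were picked for a call or a large change in these same libraries, so a reversal was unlikely from the start. The kept direction therefore says little about how stable they are. Called lincRNAs in sham LV against sham RV (3) were 5 with quantile normalization, 7 with array weights and 6 with the Y-linked covariate. Over all 13910 genes these settings called 636, 1321 and 473, against 537 in the main fit. The called lincRNAs were 0 with all genes above 0, with the replicate block and without sham RV 1 and VO RV 2 together. Called lincRNAs in VO LV against sham LV (0) were 2 with array weights and 1 with the atrial covariate. Over all genes these settings called 704 and 324, against 13 in the main fit. Called lincRNAs in the difference of the responses (2) were 1 with quantile normalization, with voom on recovered reads and with the Y-linked covariate. They were 6 with array weights and 8 with the atrial covariate. They were 0 with all genes above 0, with the replicate block and without sham RV 1 and VO RV 2 together. Over all genes the calls were 629 with quantile normalization, 495 with voom and 202 with the Y-linked covariate. They were 1047 with array weights and 1213 with the atrial covariate, against 583 in the main fit. With voom the lincRNA called in the difference was AABR07065531.5 (adjusted p = 0.0396) and neither of the 2, and the sham calls were 2, without AABR07002969.1 (adjusted p = 0.0508). The cause was not tested. The 3 sham calls held in 15 (AABR07002969.1), 13 (Rn60_1_0435.2) and 16 (AABR07017268.1) of 24 alternatives, and those of the difference in 13 (AABR07002969.1) and 8 (AABR07069227.1). Leaving out each library in turn gave 0 to 5, 0 to 4 and 0 to 5 called, and 0 to 0 in the other comparisons. The sham calls came to 0 without sham LV 1, sham LV 2, sham RV 1, sham RV 2 or VO LV 2. VO LV calls were 4 without sham LV 3 and 2 without VO RV 3, where 295 and 555 genes were called. The difference calls were 0 without sham LV 1, sham LV 2, sham RV 1, sham RV 2, VO LV 2, VO LV 3 or VO RV 3. LincRNAs at the unadjusted p ran from 15 to 22, 13 to 22, 3 to 14, 9 to 21 and 14 to 32 in the 5 comparisons in the order of the report. The highest of the last 3 came without VO RV 2, where 1054, 1142 and 3821 of 13885 genes met that criterion. With the atrial covariate the lincRNAs were 12 in VO RV against sham RV and 22 in VO LV against VO RV. That covariate gave 910 and 1341 of 13910 genes there, against 683 and 1030 in the main fit. Depth limits part of the lincRNAs, since 30 of 100 had under 10 reads in some library.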
